A study of Mus musculus with 12 samples.

Results

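The circadian clock genes described here were the 10 transcription factors and repressors Arntl, Clock, Npas2, Per2, Per3, Nr1d1, Nr1d2, Dbp, Tef and Ciart. They were chosen by gene name from 54532 genes in each table, and each name stood on a single row. The 12 libraries held RNA of C57BL/6J mouse small intestine, 3 libraries in each of 4 groups. CKO NEC tissue came from mice labelled as lacking Piezo1, a mechanically gated Ca2+ channel, in intestinal epithelial cells, with necrotizing enterocolitis (NEC, a disease in which the bowel of newborns becomes inflamed and dies) induced. Flox NEC tissue came from their floxed controls with NEC, and CKO control and flox control tissue from the same genotypes without it. The Cre driver, the way NEC was induced, the age of the mice and the time of day at which tissue was taken were not given in the sources used here. Whether each library is a different mouse is not stated either, so p-values measure only the spread between libraries, which may be technical.

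The mammalian clock is a transcriptional feedback loop. CLOCK or its paralogue NPAS2 pairs with the product of Arntl (BMAL1), and the pair binds E-box elements and drives the Per, Cry, Nr1d1, Nr1d2, Dbp and Ciart genes. The PER and CRY proteins block that pair, and the nuclear receptors REV-ERBα (Nr1d1) and REV-ERBβ (Nr1d2) repress Arntl, Clock and Npas2 through RORE elements. DBP and TEF are PAR bZIP factors that activate genes through D-box elements. In a running clock the transcripts of Arntl and Npas2 are high when those of Nr1d1 and Dbp are low, and in the gut epithelium the time of feeding is known to set this rhythm. A single sampling gives levels and ratios, not a rhythm, and no phase angle was computed.

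Depth was 13057724 to 16821130 reads per library. Levels are rescaled FPKM, reads per length of the gene and size of the library, after all 12 libraries were put on 1 scale, and changes are differences in log2 of rescaled FPKM plus 1. Every test below is limma over all genes with at least 1 FPKM in at least 3 of the libraries compared, with adjustment over all of them at 0.05. Piezo1 stood at 4.88, 5.04 and 2.99 FPKM in CKO NEC libraries and 6.62, 6.52 and 6.12 FPKM in flox NEC libraries. It stood at 1.72, 1.04 and 0.933 FPKM in CKO control and 1.39, 1.45 and 1.09 FPKM in flox control libraries, so the uninjured values overlap and do not show the labelled loss, in tissue that also holds other cells. The test gave -0.51 ± 0.17 SE, adjusted p = 0.847 in NEC and -0.065 ± 0.19 SE, adjusted p = 0.846 in control, and genotypes below are as labelled. Libraries also differed in cell markers. The summed level of 8 enterocyte markers such as Vil1 and Fabp1 was 5003 to 8635 FPKM in the 6 NEC libraries and 13439 to 21476 FPKM in the 6 control libraries, with no marker at 0 in any library. Apoa1 had the highest mean of the 8 in every group, at 3733 FPKM in CKO NEC, 2981 in flox NEC, 11231 in CKO control and 11853 in flox control. Of the 8, 5 lay wholly lower in CKO NEC than in CKO control, and 3 lay wholly lower and 1 wholly higher in flox NEC than in flox control. Krt20 and Fabp2 had higher means in NEC in both genotypes, and Apob in flox tissue. That of 6 fibroblast markers was 278 to 572 FPKM in NEC and 56.1 to 280.2 FPKM in control, and that of 5 lymphocyte markers 0.195 to 2.08 FPKM in NEC and 1.82 to 25.7 FPKM in control. The 6 smooth muscle markers all stood lower in every CKO control than in every flox control library (summed level of 186 to 594 against 678 to 866 FPKM), and so did 5 of 5 markers of enteric neurons and glia (5.39 to 18.9 against 25.3 to 33.4 FPKM). Summed smooth muscle level was 512 to 2007 FPKM in CKO NEC and 1775 to 2796 FPKM in flox NEC. Of the 6 markers, 5 lay wholly higher and 1 wholly lower in flox NEC than control, and 1 wholly higher in CKO NEC. The sum of 4 endothelial markers was 28.0 to 39.8 FPKM in NEC and 12.6 to 23.7 FPKM in control. That of 7 myeloid markers was 32.6 to 49.2 FPKM in NEC and 98.4 to 122 FPKM in control. Of these 7, 4 lay wholly lower in NEC in each genotype. Csf1r had the highest mean of the 7 in every group, at 17.9 FPKM in CKO NEC, 20.6 in flox NEC, 68.1 in CKO control and 68.6 in flox control. Itgam and S100a9, both under 1 FPKM, had higher means in NEC in both genotypes. Mitochondrial transcripts took 3.47% to 4.52% of the reads in the 6 NEC libraries, 5.11% to 6.76% in CKO control and 11.1% to 14.3% in flox control. The part of these differences in the results was not tested, and in bulk tissue fewer cells of a type and less RNA per cell cannot be told apart.

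Promoter windows are shown first because E-boxes, D-boxes and ROREs are the elements through which clock genes are known to act on each other. RefSeq windows on GRCm38.p6, from 250 bases before to 50 after a start site, were at hand for 9 of the members, in 13 windows. Both strands were searched for the E-box CACGTG, the E'-box CACGTT, the D-box TTATGTAA or TTATGCAA, the RORE half-site TAGGTCA or TGGGTCA, and the cAMP response element TGACGTCA. The E-box and the cAMP response element read the same on both strands, and no match overlaps another in the windows printed. The 4 windows below, each 5′ to 3′ on the gene's strand with matches in capitals, are a repressor with E-boxes, a repressor with D-boxes, a repressor with an E'-box and an activator with a RORE half-site.

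Ciart (chr3:95882179-95882478, minus strand): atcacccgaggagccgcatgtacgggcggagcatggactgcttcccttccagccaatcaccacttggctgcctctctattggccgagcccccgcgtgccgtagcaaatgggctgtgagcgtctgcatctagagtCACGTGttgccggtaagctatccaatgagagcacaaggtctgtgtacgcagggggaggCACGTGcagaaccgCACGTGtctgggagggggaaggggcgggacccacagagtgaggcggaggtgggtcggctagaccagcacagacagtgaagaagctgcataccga
Per3 (chr4:151044616-151044915, minus strand): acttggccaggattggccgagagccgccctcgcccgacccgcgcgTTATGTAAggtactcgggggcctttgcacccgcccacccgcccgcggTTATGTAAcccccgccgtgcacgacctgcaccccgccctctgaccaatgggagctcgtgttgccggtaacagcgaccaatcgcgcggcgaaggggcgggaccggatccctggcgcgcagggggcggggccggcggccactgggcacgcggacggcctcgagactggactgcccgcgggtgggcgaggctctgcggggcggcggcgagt
Nr1d1 (chr11:98775328-98775627, minus strand): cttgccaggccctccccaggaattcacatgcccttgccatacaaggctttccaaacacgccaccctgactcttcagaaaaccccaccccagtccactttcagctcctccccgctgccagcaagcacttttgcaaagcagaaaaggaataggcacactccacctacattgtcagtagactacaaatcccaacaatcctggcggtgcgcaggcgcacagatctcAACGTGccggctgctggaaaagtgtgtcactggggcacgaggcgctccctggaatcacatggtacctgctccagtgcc
Arntl (chr7:113207261-113207560, plus strand): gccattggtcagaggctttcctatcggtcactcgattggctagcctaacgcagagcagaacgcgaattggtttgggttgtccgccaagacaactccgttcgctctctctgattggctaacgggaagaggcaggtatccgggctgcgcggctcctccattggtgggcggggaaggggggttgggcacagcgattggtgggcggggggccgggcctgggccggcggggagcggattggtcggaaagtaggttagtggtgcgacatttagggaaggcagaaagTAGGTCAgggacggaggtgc

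The Ciart window holds the E-box at positions -116, -58 and -44 from the start site (first base of each match). The E-box was found in windows of 2 of the 9 genes, Ciart and Tef, and in 7.15% of all 32851 windows. The Per3 window holds the D-box at -205 and -158, a match found in 1.66% of all windows. The Nr1d1 window holds the E'-box at -28, on the opposite strand (4.68% of all windows), and an Arntl window holds the RORE half-site at 31 (6.45% of all windows). The end of the Nr1d1 window, unlike that of the other windows, was in no GENCODE M21 transcript of its gene. Its position of -28 thus holds for the RefSeq start site only. No cAMP response element was found in the 13 windows (1.79% of all windows). Of the 13 windows, 7 hold no match of any motif searched, among them all windows of Clock, Npas2, Nr1d2 and Dbp. A match describes the letters only, and a window without one says nothing of sites elsewhere.

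Per2, a repressor of the loop, was the most abundant of the 10 genes per length in all 4 groups, and Ciart, a small repressor of CLOCK and BMAL1, the least. Per2 averaged 13.97 ± 1.43 FPKM in CKO NEC, 14.6 ± 2.37 in flox NEC, 21.1 ± 2.83 in CKO control and 23.1 ± 3.13 in flox control (SD, n = 3 throughout). Tef came next in each group, at 12.8 ± 1.16, 13.6 ± 1.01, 13.9 ± 2.39 and 12.99 ± 2.43 FPKM in the same order of groups. The libraries of Per2 and Tef overlapped in both NEC groups and did not overlap in either control group. Arntl was the lowest of the activators in every group, between 1.53 FPKM in flox control and 1.89 FPKM in CKO NEC. Nr1d2 held the third place in both NEC groups (CKO NEC 9.56 ± 0.489 FPKM, flox NEC 11.97 ± 0.289 FPKM), the fifth in CKO control (2.998 ± 0.456 FPKM) and the fourth in flox control (4.44 ± 0.982 FPKM). In CKO NEC its neighbour Npas2 overlapped it, in flox control Npas2 and Dbp did, and in CKO control Dbp did. The values rest on 19 to 60 reads per library for Ciart, 81 to 247 for Dbp, 83 to 672 for Per3, 85 to 380 for Nr1d1, 131 to 305 for Arntl and at least 195 for the others. Ciart is therefore the least precisely measured.

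**Figure D1:**
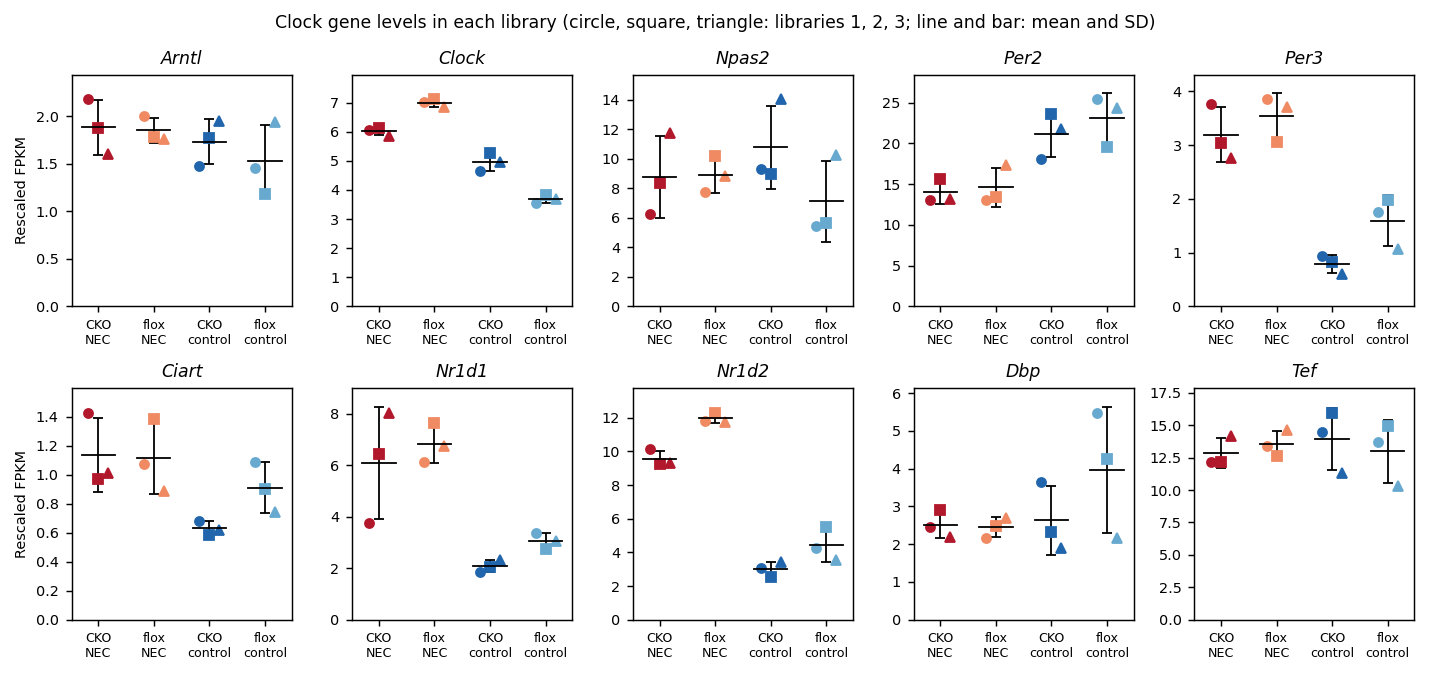
Levels of the 10 clock genes, 1 panel a gene, in rescaled FPKM on the vertical axis for the CKO NEC, flox NEC, CKO control and flox control groups from left to right; symbols are libraries 1 to 3, and the line and bar are the mean and SD. Clock, Nr1d1, Nr1d2 and Per3 stand higher in all 6 NEC libraries than in all 6 control libraries, Per2 stands lower in all 6, and Arntl, Npas2, Dbp and Tef overlap between NEC and control.

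NEC was compared with control in each genotype, to ask how the clock transcripts stood in the injured bowel. NEC and control values came in separate tables, and the hour of sampling and the age were not given. A difference between the conditions in hour, feeding, age or handling cannot be told apart from NEC. The REV-ERB receptors and Per3 rose in NEC in both genotypes, Per2 fell in both, and Clock rose in flox tissue. Arntl, Npas2, Dbp and Tef did not pass the test in either genotype. Of the 9 members tested in CKO tissue, 3 rose and 1 fell, where 37.9% of 13355 genes tested were called (17.5% higher, 20.4% lower). Of the 10 members tested in flox tissue, 4 rose and 1 fell, where 56.5% of 13730 genes tested were called (28.7% higher, 27.8% lower). The number of members called was thus close to the background in both genotypes, and is not a result about the members. Of the 9 members tested in CKO tissue, NEC libraries lay wholly above control for 4 and wholly below for 1. Over all genes tested there, 53.7% did not overlap, 25% above and 28.6% below. Ciart, not tested in CKO tissue, also lay above. In flox tissue 5 of 10 did not overlap, 4 above and 1 below (64.9% of all genes tested, 33.3% above and 31.6% below). In CKO tissue the median change was 0.078 over the members and -0.025 over all genes, and in flox tissue 0.26 and 0.011. The share of higher calls over all genes moved with the scale. It was 2332 of 5059 calls in CKO and 3940 of 7751 in flox tissue here, 4264 of 5792 and 5491 of 8170 with libraries scaled by total reads, and 3140 of 5202 and 4906 of 8029 on deposited FPKM.

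Nr1d2 (ENSMUSG00000021775, chromosome 14, 18204054 to 18239127 on GRCm38), the gene of REV-ERBβ, showed the largest rise of the 10 in both genotypes on the log2 scale with 1 added. It stood at 10.1, 9.26 and 9.29 FPKM in CKO NEC and 3.07, 2.51 and 3.42 FPKM in CKO control libraries (log2 change of 1.41 ± 0.13 SE, adjusted p = 0.00134). In flox tissue it stood at 11.8, 12.3 and 11.8 FPKM in flox NEC and 4.29, 5.49 and 3.54 FPKM in flox control libraries (1.27 ± 0.14 SE, adjusted p = 0.000368). The groups did not overlap in either genotype, and NEC means were 3.19 times control means in CKO and 2.70 times in flox tissue. By this fold of means Per3, at a lower level, rose more in CKO tissue (4.04 times) and less in flox tissue (2.22 times). Nr1d1 (ENSMUSG00000020889, chromosome 11, 98767932 to 98775333), its paralogue, stood at 3.76, 6.45 and 8.05 FPKM in CKO NEC and 1.86, 2.04 and 2.33 FPKM in CKO control (1.16 ± 0.23 SE, adjusted p = 0.00965). In flox tissue Nr1d1 stood at 6.14, 7.64 and 6.74 FPKM in flox NEC and 3.39, 2.74 and 3.06 FPKM in flox control (0.95 ± 0.12 SE, adjusted p = 0.000589). Again no NEC library fell among the controls of its genotype, but the CKO NEC libraries were spread widely, with library 1 the lowest. Of the exon bases of Nr1d1, 8.55% overlap those of Thra on the opposite strand, and the library kit named in the labels does not mark strand, so reads from that stretch cannot be told apart. Thra, a thyroid hormone receptor, averaged 41.0 FPKM in CKO NEC, 39.1 in flox NEC, 39.2 in CKO control and 40.4 in flox control. As this is above Nr1d1 in every group, the share of Nr1d1 reads open to this may exceed the share of bases. That share was not tested.

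The Period genes moved in opposite directions. Per3 (ENSMUSG00000028957, chromosome 4, 151003652 to 151044665) stood at 3.76, 3.05 and 2.77 FPKM in CKO NEC and 0.937, 0.827 and 0.607 FPKM in CKO control (1.22 ± 0.15 SE, adjusted p = 0.00263). In flox tissue Per3 stood at 3.85, 3.05 and 3.71 FPKM in flox NEC and 1.75, 1.98 and 1.06 FPKM in flox control (0.82 ± 0.17 SE, adjusted p = 0.00467). NEC and control did not overlap in either genotype. All 3 CKO control libraries lay under 1 FPKM, so Per3 entered the CKO test through its NEC libraries alone, which by itself favours a difference. Per2 (ENSMUSG00000055866, chromosome 1, 91415982 to 91459324) stood at 13.1, 15.6 and 13.2 FPKM in CKO NEC and 18.1, 23.6 and 21.8 FPKM in CKO control (-0.56 ± 0.14 SE, adjusted p = 0.021). In flox tissue Per2 stood at 13.1, 13.4 and 17.3 FPKM in flox NEC and 25.4, 19.5 and 24.3 FPKM in flox control (-0.63 ± 0.15 SE, adjusted p = 0.0098). It was below all controls in 3 of 3 NEC libraries of each genotype. The fall of Per2 is the least firm of these calls: with libraries scaled by total reads it was -0.25 in CKO (adjusted p = 0.186) and -0.38 in flox tissue (adjusted p = 0.0532). In CKO tissue it also missed the threshold on deposited FPKM (-0.43, adjusted p = 0.0516) and with quantile normalization (-0.38, adjusted p = 0.0749). Without any one of 4 libraries (CKO NEC 1 and 3, CKO control 2 and 3) it missed as well, at changes of -0.54 to -0.48. Ciart (ENSMUSG00000038550, chromosome 3, 95878503 to 95882251) stood at 1.43, 0.966 and 1.01 FPKM in CKO NEC and 0.683, 0.585 and 0.621 FPKM in CKO control without overlap, but only 2 of the 6 CKO libraries reached 1 FPKM and it was not tested. Where an alternative let Ciart in, its CKO change was 0.38 without the filter on low values (adjusted p = 0.153), 0.38 with all 4 groups in 1 fit (adjusted p = 0.0528), 0.46 on deposited FPKM (adjusted p = 0.0539) and 0.53 with total-read scaling, where it passed (adjusted p = 0.0375). In flox tissue Ciart stood at 1.07, 1.38 and 0.888 FPKM in flox NEC and 1.09, 0.903 and 0.740 FPKM in flox control, with overlap (0.14 ± 0.15 SE, adjusted p = 0.444).

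Of the 3 activators, 0 passed the test in CKO tissue and Clock passed it in flox tissue. Clock (ENSMUSG00000029238, chromosome 5, 76209868 to 76304792) stood at 6.05, 6.14 and 5.86 FPKM in CKO NEC and 4.63, 5.25 and 4.95 FPKM in CKO control (0.24 ± 0.11 SE, adjusted p = 0.11). In flox tissue it stood at 7.01, 7.11 and 6.83 FPKM in flox NEC and 3.55, 3.81 and 3.67 FPKM in flox control (0.77 ± 0.093 SE, adjusted p = 0.000492). All NEC libraries lay above the controls of their genotype in both cases. The CKO change passed the threshold with all 4 groups in 1 fit (0.24, adjusted p = 0.0328), on deposited FPKM (0.36, adjusted p = 0.0331) and with total-read scaling (0.51, adjusted p = 0.0138). Npas2 (ENSMUSG00000026077, chromosome 1, 39193731 to 39363236), the paralogue that can stand in for CLOCK, stood at 6.23, 8.39 and 11.7 FPKM in CKO NEC and 9.32, 8.99 and 14.03 FPKM in CKO control (-0.28 ± 0.25 SE, adjusted p = 0.396). In flox tissue Npas2 stood at 7.74, 10.2 and 8.87 FPKM in flox NEC and 5.45, 5.66 and 10.3 FPKM in flox control (0.33 ± 0.23 SE, adjusted p = 0.245). Flox control libraries 1 and 2 lay below the flox NEC libraries and library 3 above them, and without it the flox change of Npas2 was 0.59 (adjusted p = 0.00692). Library 3 is named because its value ran against the change, so the value without it does not show that Npas2 changed. With total-read scaling of all libraries Npas2 passed (0.57, adjusted p = 0.0365). Arntl (ENSMUSG00000055116, chromosome 7, 113207465 to 113314126), which encodes the obligate partner BMAL1, stood at 2.18, 1.88 and 1.60 FPKM in CKO NEC and 1.48, 1.77 and 1.95 FPKM in CKO control (0.078 ± 0.14 SE, adjusted p = 0.689). In flox tissue Arntl stood at 2.01, 1.79 and 1.77 FPKM in flox NEC and 1.46, 1.19 and 1.94 FPKM in flox control (0.18 ± 0.15 SE, adjusted p = 0.312). The groups overlapped in both genotypes.

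The PAR bZIP factors did not pass the test. Dbp (ENSMUSG00000059824, chromosome 7, 45705088 to 45710203), a direct output of the loop, stood at 2.44, 2.90 and 2.20 FPKM in CKO NEC and 3.66, 2.33 and 1.90 FPKM in CKO control, with overlap (-0.022 ± 0.20 SE, adjusted p = 0.938). In flox tissue Dbp stood at 2.17, 2.48 and 2.71 FPKM in flox NEC and 5.48, 4.25 and 2.17 FPKM in flox control (-0.47 ± 0.25 SE, adjusted p = 0.15). Flox control libraries 1 and 2 lay above the flox NEC libraries and library 3 did not, and without it the flox change of Dbp was -0.76 (adjusted p = 0.00337). Each library was left out in turn, and library 3 is named because its value ran against the change. The value without it therefore does not show that Dbp changed. Of the exon bases of Dbp, 18.01% overlap those of Sphk2, a sphingosine kinase gene on the opposite strand, which averaged 19.4 FPKM in CKO NEC, 16.0 in flox NEC, 21.1 in CKO control and 18.5 in flox control. Reads from that stretch cannot be told apart. Sphk2 stood above Dbp in every group, so the share of Dbp reads open to this may exceed the share of bases. That share was not tested. Tef (ENSMUSG00000022389, chromosome 15, 81802421 to 81826863), whose product is closely related to DBP, stood at 12.2, 12.1 and 14.2 FPKM in CKO NEC and 14.5, 15.97 and 11.3 FPKM in CKO control (-0.10 ± 0.15 SE, adjusted p = 0.631). In flox tissue Tef stood at 13.4, 12.6 and 14.6 FPKM in flox NEC and 13.7, 14.97 and 10.3 FPKM in flox control (0.070 ± 0.15 SE, adjusted p = 0.706), the smallest change of the 10 there, with overlap in both genotypes.

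**Figure D2:**
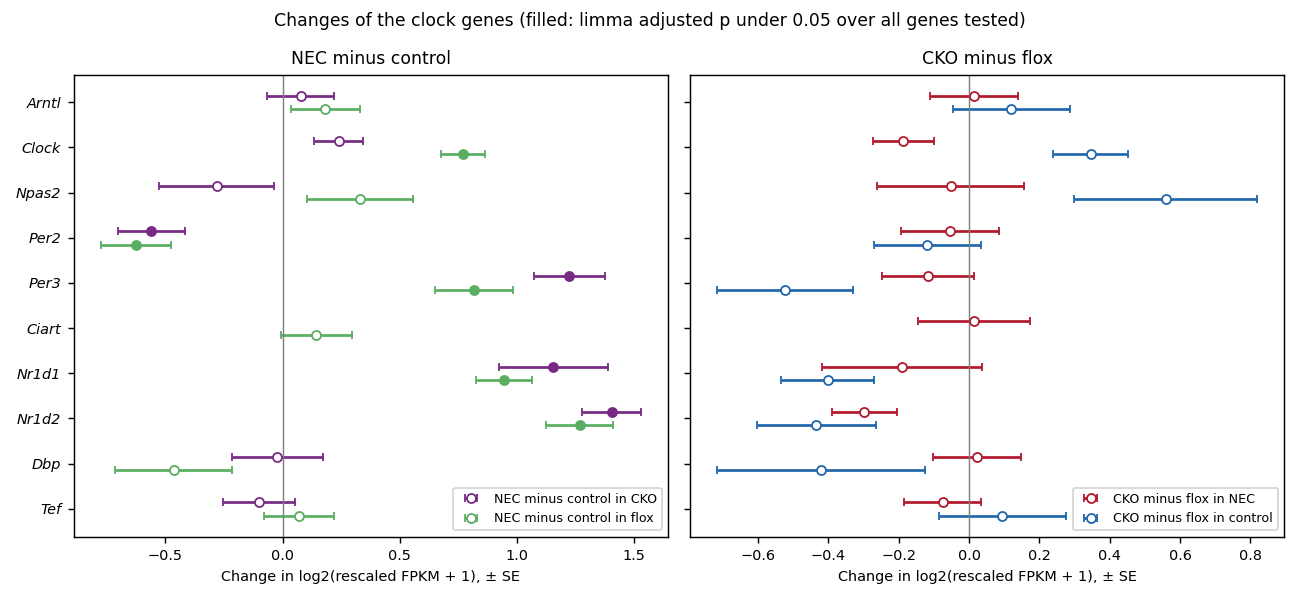
Changes of the 10 genes in log2 of rescaled FPKM plus 1 (horizontal axis, ± SE, n = 3 libraries a group), for NEC minus control in CKO and flox tissue on the left and for CKO minus flox in NEC and control tissue on the right; filled points passed the adjusted threshold over all genes tested. Nr1d2 stands at 1.41 and 1.27 and Per2 at -0.56 and -0.63 on the left in CKO and flox tissue, and no point on the right is filled.

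CKO was compared with flox in uninjured tissue, to ask whether the clock transcripts differed with genotype without injury. The activators stood higher and the REV-ERB genes, Per3, Ciart and Dbp lower on average in CKO control tissue, but no member passed the adjusted threshold. By limma 0 of the 9 members tested were called and 4 had an unadjusted p under 0.05. Over all 13310 genes tested, limma called 0.00751%, and 28.9% had an unadjusted p under 0.05. Limma-voom also called 0 members, beside 5.51% of all genes. Nr1d1 stood at 1.86, 2.04 and 2.33 FPKM in CKO control and 3.39, 2.74 and 3.06 FPKM in flox control (-0.40 ± 0.13 SE, adjusted p = 0.105). Nr1d2 stood at 3.07, 2.51 and 3.42 FPKM in CKO control and 4.29, 5.49 and 3.54 FPKM in flox control (-0.43 ± 0.17 SE, adjusted p = 0.148), and Per3 at 0.937, 0.827 and 0.607 against 1.75, 1.98 and 1.06 FPKM (-0.52 ± 0.19 SE, adjusted p = 0.134). For these 3 genes every CKO control library lay below every flox control library. The log2 scale with 1 added shrinks the change of a gene as low as Per3, whose CKO mean was 0.495 times the flox mean, and Per3 entered the test through its flox libraries alone. Ciart was also lower in 3 of 3 CKO libraries (0.630 ± 0.0494 against 0.910 ± 0.174 FPKM) but too low to be tested.

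Clock was above flox in 3 of 3 CKO control libraries (4.95 ± 0.310 FPKM in CKO against 3.68 ± 0.131 FPKM in flox, 0.35 ± 0.11 SE, adjusted p = 0.0953). Npas2 averaged 10.8 ± 2.82 FPKM in CKO control and 7.13 ± 2.74 FPKM in flox control (0.56 ± 0.26 SE, adjusted p = 0.204), with flox control library 3 above 2 of the 3 CKO libraries. Arntl (0.12 ± 0.17 SE, adjusted p = 0.667), Per2 (-0.12 ± 0.15 SE, adjusted p = 0.639), Dbp (-0.42 ± 0.30 SE, adjusted p = 0.379) and Tef (0.095 ± 0.18 SE, adjusted p = 0.764) overlapped between genotypes. Of the 9 members tested, 1 lay wholly above and 3 wholly below flox. Over all genes tested, 34.6% did not overlap in either direction (21.8% above, 12.7% below). Ciart, which was not tested, also lay below. With all 4 groups in 1 fit, which borrows the spread of the NEC libraries, Clock (adjusted p = 0.022), Nr1d2 (adjusted p = 0.0487) and Per3 (adjusted p = 0.0487) passed, and so did 14.3% of all genes. The smooth muscle markers and the mitochondrial share differed between the same libraries, and their part in these values was not tested.

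CKO was compared with flox in NEC tissue to ask the same in the injured bowel. The clock genes stood close together in the genotypes, with Nr1d2 and Clock the only members whose libraries did not overlap. Nr1d2 was lower in 3 of 3 CKO NEC libraries (9.56 ± 0.489 FPKM in CKO against 11.97 ± 0.289 FPKM in flox, -0.30 ± 0.092 SE, adjusted p = 0.847). Clock was also lower in 3 of 3 (6.02 ± 0.144 against 6.98 ± 0.140 FPKM, -0.19 ± 0.087 SE, adjusted p = 0.847), and 10.8% of all 13351 genes tested did not overlap (5.32% above, 5.5% below). The other 8 changes ranged from -0.19 for Nr1d1 to 0.023 for Dbp. By limma 0 of 10 members and 0% of all genes were called. An unadjusted p under 0.05 was found for 1 member (Nr1d2) and 4.4% of all genes. Limma-voom also called 0 members and 0% of all genes. The standard errors of the members were 0.087 for Clock to 0.23 for Nr1d1.

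The genotype difference was set against the condition in 1 fit of all 12 libraries, as the NEC change in CKO minus the NEC change in flox tissue. This shares its libraries with every comparison above. Clock had the smallest p of the members: its NEC change was 0.24 in CKO and 0.77 in flox tissue, a difference of -0.53 ± 0.11 SE, adjusted p = 0.0542. That is past the unadjusted and short of the adjusted threshold, and 0.773% of all 14609 genes passed the latter. Clock passed with limma-voom on recovered reads (-0.64, adjusted p = 0.0459), with quantile normalization (adjusted p = 0.0473) and without flox control library 3 (adjusted p = 0.0461). In group means Clock ran 6.02 FPKM in CKO NEC, 6.98 in flox NEC, 4.95 in CKO control and 3.68 in flox control, so CKO stood below flox in NEC and above it in control. The other activators had negative differences too, Npas2 of -0.61 ± 0.36 SE, adjusted p = 0.369 and Arntl of -0.11 ± 0.19 SE, adjusted p = 0.803. The 5 repressors had positive ones, from 0.064 for Per2 to 0.41 for Per3, at adjusted p of 0.329 to 0.895, and the PAR bZIP factors parted, Dbp at 0.44 and Tef at -0.17. Limma called 0 of the 10 members, and 1 of 10 members and 20.7% of all genes had an unadjusted p under 0.05.

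Ratios between members within a library do not depend on how libraries are scaled, and are given as a description without a test. The log2 ratio of Npas2 to Nr1d1 was 0.73, 0.38 and 0.54 in CKO NEC and 0.33, 0.42 and 0.40 in flox NEC libraries. It was 2.33, 2.14 and 2.59 in CKO control and 0.68, 1.04 and 1.75 in flox control libraries. Npas2 thus exceeded Nr1d1 most in CKO control, and flox control lay between it and NEC, its lowest library within the NEC range. The log2 ratio of Clock to Nr1d2 was -0.74, -0.59 and -0.67 in CKO NEC and -0.76, -0.79 and -0.78 in flox NEC libraries. It was 0.60, 1.06 and 0.54 in CKO control and -0.27, -0.53 and 0.053 in flox control libraries. All NEC libraries lay below all control libraries, and CKO control lay above flox control. Arntl to Nr1d1 gave -0.79, -1.78 and -2.33 in CKO NEC, -1.61, -2.10 and -1.93 in flox NEC, -0.32, -0.20 and -0.25 in CKO control and -1.22, -1.21 and -0.65 in flox control. Here CKO NEC library 1, the one with little Nr1d1, fell within the flox control range. Ratios to Dbp ran otherwise. Npas2 to Dbp gave 1.35, 1.53 and 2.42 in CKO NEC, 1.83, 2.04 and 1.71 in flox NEC, 1.35, 1.95 and 2.88 in CKO control and -0.0087, 0.41 and 2.25 in flox control. Arntl to Dbp gave -0.16, -0.63 and -0.46 in CKO NEC, -0.11, -0.48 and -0.62 in flox NEC, -1.30, -0.40 and 0.038 in CKO control and -1.91, -1.84 and -0.15 in flox control. Both were lowest in flox control libraries 1 and 2, and the CKO libraries of NEC and control overlapped. Among the repressors, Per2 to Per3 gave 1.80, 2.36 and 2.25 in CKO NEC and 1.76, 2.14 and 2.23 in flox NEC libraries. It gave 4.27, 4.84 and 5.16 in CKO control and 3.86, 3.30 and 4.52 in flox control libraries, all above NEC.

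**Figure D3:**
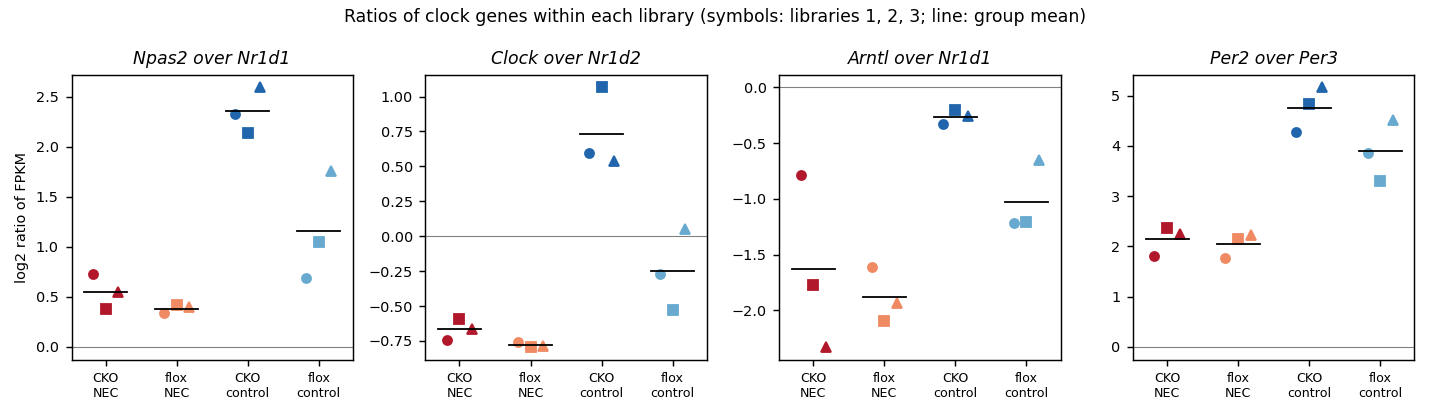
Log2 ratios of FPKM between pairs of clock genes within each library (vertical axes, each with its own range) for the 4 groups; symbols are libraries 1 to 3 and lines are group means. The Clock to Nr1d2 ratio lies below 0 in all 6 NEC libraries and above 0 in all 3 CKO control libraries.

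Libraries of 1 group also differed among themselves. Flox control library 3 held the highest Npas2 (10.3 FPKM) and Arntl (1.94 FPKM) of the flox controls. It also held their lowest Dbp (2.17 FPKM), Per3 (1.06 FPKM), Nr1d2 (3.54 FPKM), Tef (10.3 FPKM) and Ciart (0.740 FPKM). CKO control library 3 likewise had the highest Npas2 and Arntl and the lowest Dbp, Per3 and Tef of its group, while its Nr1d1 and Nr1d2 were the highest. Of the NEC libraries, CKO NEC library 1 had the lowest Nr1d1 and Npas2 (3.76 and 6.23 FPKM) and the highest Arntl, Per3 and Ciart of its group. With the time of sampling not given, a difference in hour between libraries was not tested.

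Other genes of the clock were read from a list of 19. In CKO tissue 4 of the 16 tested rose and 2 fell in NEC (median change of -0.0048, and -0.025 over all genes). In flox tissue 8 of 16 rose and 1 fell (median of 0.44, and 0.011 over all genes). Beside the 37.9% and 56.5% of all genes called in CKO and flox tissue, these counts are not a result about the list. Per1, the Period gene most readily induced by hormones and stress, averaged 17.5 ± 1.80 FPKM in CKO NEC and 7.91 ± 3.41 FPKM in CKO control (1.11 ± 0.25 SE, adjusted p = 0.0139). In flox tissue it averaged 23.3 ± 4.89 FPKM in flox NEC and 7.19 ± 1.43 FPKM in flox control (1.56 ± 0.18 SE, adjusted p = 0.000459), and so rose in both genotypes, while Per2 fell. Rora, the gene of a nuclear receptor that activates through ROREs, averaged 1.82 ± 0.717 FPKM in CKO NEC and 1.47 ± 0.461 FPKM in CKO control and did not pass (0.17 ± 0.24 SE, adjusted p = 0.597). In flox tissue it averaged 2.13 ± 0.322 FPKM in flox NEC and 0.842 ± 0.150 FPKM in flox control (0.76 ± 0.14 SE, adjusted p = 0.00307), where no control library reached 1 FPKM and it entered the test through its NEC libraries alone.

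Of the genes that modify clock proteins, Csnk1e, a kinase of the PER proteins, rose in CKO (0.76 ± 0.17 SE, adjusted p = 0.0128) and in flox tissue (0.55 ± 0.12 SE, adjusted p = 0.00579). Gsk3b, another kinase, did not pass in CKO tissue (0.29 ± 0.11 SE, adjusted p = 0.0656) and rose in flox tissue (0.83 ± 0.12 SE, adjusted p = 0.000967). Usp2, a deubiquitinase, did not pass in CKO tissue (0.74 ± 0.29 SE, adjusted p = 0.0801) and rose in flox tissue (0.69 ± 0.15 SE, adjusted p = 0.00549). Fbxl21, a ubiquitin ligase subunit for CRY proteins, fell in CKO (-1.09 ± 0.15 SE, adjusted p = 0.00327) and flox tissue (-1.003 ± 0.22 SE, adjusted p = 0.00613), and it entered both tests through its control libraries alone. Timeless, which in mammals acts at replication forks, rose in CKO (1.27 ± 0.21 SE, adjusted p = 0.00532) and flox tissue (0.70 ± 0.18 SE, adjusted p = 0.0126). Hlf, the third PAR bZIP factor, rose in CKO (0.81 ± 0.18 SE, adjusted p = 0.013) and flox tissue (0.84 ± 0.19 SE, adjusted p = 0.00831). Also called, and named after their values were seen, were Bhlhe40, with a change of -0.80 in CKO tissue, and Cry2, higher by 0.63 in flox tissue. Hlf reached 1 FPKM in 1 of 3 control libraries of either genotype. Between genotypes 0 of 15 passed in NEC and 0 of 14 in control by limma. Unadjusted p was under 0.05 for 0 of 15 in NEC and 6 of 14 in control, beside 4.4% and 28.9% of all genes. The interaction was -0.54 for Gsk3b (adjusted p = 0.0771), 0.046 for Usp2 (adjusted p = 0.956) and -0.59 for Rora (adjusted p = 0.282).

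Genes known as clock outputs in peripheral tissues stood mostly higher in NEC. Of the 13 tested from a list of 14, 6 rose and 0 fell in CKO tissue (median change of 0.69, and -0.025 over all genes, of which 17.5% were higher). In flox tissue 9 rose and 0 fell (median of 1.05, and 0.011 over all genes, of which 28.7% were higher). By an unadjusted p under 0.05, 7 of 13 differed in CKO and 9 of 13 in flox tissue, beside 49% and 61.6% of all genes. Wee1, a mitotic kinase driven through E-boxes, averaged 9.94 ± 1.34 FPKM in CKO NEC and 5.79 ± 0.768 FPKM in CKO control (0.69 ± 0.14 SE, adjusted p = 0.011), and 9.95 ± 0.875 FPKM in flox NEC and 4.30 ± 0.368 FPKM in flox control (1.05 ± 0.11 SE, adjusted p = 0.000293). Por, the electron donor of cytochrome P450 enzymes, averaged 65.9 ± 14.4 FPKM in CKO NEC and 25.5 ± 3.76 FPKM in CKO control (1.32 ± 0.20 SE, adjusted p = 0.0045), and 63.2 ± 14.3 FPKM in flox NEC and 19.3 ± 2.52 FPKM in flox control (1.65 ± 0.18 SE, adjusted p = 0.000326). Abcb1a, an efflux pump, averaged 124 ± 28.8 FPKM in CKO NEC and 42.7 ± 36.04 FPKM in CKO control (1.79 ± 0.50 SE, adjusted p = 0.0291), and 137 ± 25.05 FPKM in flox NEC and 36.4 ± 39.9 FPKM in flox control (2.40 ± 0.64 SE, adjusted p = 0.0145). These 3 genes rose in both genotypes. For Abcb1a control library 3 stood apart, at 84.3 FPKM in CKO (the others at 21.4 and 22.4 FPKM) and 82.5 FPKM in flox tissue (the others both at 13.4 FPKM). Its NEC mean was 2.90 (5.65 without CKO control library 3) times the control mean in CKO and 3.77 (10.3 without flox control library 3) in flox tissue. Slc5a1, the intestinal glucose transporter, did not pass in CKO tissue (0.27 ± 0.30 SE, adjusted p = 0.5) and averaged 137 ± 30.04 FPKM in flox NEC and 61.1 ± 14.98 FPKM in flox control (1.16 ± 0.22 SE, adjusted p = 0.00361). Its interaction was -0.88 ± 0.40 SE, adjusted p = 0.242. Ccnd1, the cyclin D1 gene, rose by 1.52 in CKO and 1.78 in flox tissue. Lonrf3 rose by 0.90 in CKO and 1.48 in flox tissue, where no control library reached 1 FPKM. Tspan4 rose in CKO tissue (0.72 ± 0.15 SE, adjusted p = 0.00955), and Alas1, the first enzyme of heme synthesis, in flox tissue (0.43 ± 0.12 SE, adjusted p = 0.0197). In the other genotype neither passed, Tspan4 at 0.37 in flox (adjusted p = 0.102) and Alas1 at 0.17 in CKO tissue (adjusted p = 0.29). The summed level of the enterocyte markers, with Apoa1 its largest part, stood lower in the same NEC libraries, and its part in these changes was not tested.

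Glucocorticoids are known to induce Per1 and to reset peripheral clocks, so 10 genes they induce were read beside the members, Per1 among them. In CKO tissue 4 of 9 rose and 2 fell in NEC, with a median of 0.70 (17.5% of all genes were higher and 20.4% lower, with a median of -0.025). In flox tissue 7 of 10 rose and 1 fell, with a median of 1.54 (28.7% and 27.8% of all genes, with a median of 0.011). Fkbp5, a co-chaperone of the glucocorticoid receptor, averaged 10.2 ± 4.57 FPKM in CKO NEC and 1.40 ± 1.24 FPKM in CKO control (2.27 ± 0.39 SE, adjusted p = 0.00616). In flox tissue Fkbp5 averaged 12.8 ± 3.48 FPKM in flox NEC and 1.04 ± 0.357 FPKM in flox control (2.75 ± 0.21 SE, adjusted p = 0.000121). Klf9, a Krüppel-like factor, averaged 15.3 ± 0.947 FPKM in CKO NEC and 10.5 ± 1.41 FPKM in CKO control (0.51 ± 0.13 SE, adjusted p = 0.0215). In flox tissue Klf9 averaged 20.8 ± 1.28 FPKM in flox NEC and 4.82 ± 2.97 FPKM in flox control (2.05 ± 0.35 SE, adjusted p = 0.00219), and the difference between those changes was -1.54 ± 0.41 SE, adjusted p = 0.0806. Pck1, a gluconeogenic enzyme, fell to 28.3 ± 11.7 FPKM in CKO NEC against 295 ± 64.98 FPKM in CKO control (-3.38 ± 0.30 SE, adjusted p = 0.00134). It fell to 21.2 ± 11.5 FPKM in flox NEC against 245 ± 109.7 FPKM in flox control (-3.50 ± 0.46 SE, adjusted p = 0.000709). The metallothionein Mt2 rose in both genotypes (1.72 in CKO and 1.72 in flox tissue). Tsc22d3, named after its values were seen, fell in CKO tissue (-0.73 ± 0.21 SE, adjusted p = 0.0336). Zbtb16 (1.52), Sgk1 (2.30) and Dusp1 (0.74) rose in flox tissue, Zbtb16 with no control library at 1 FPKM. In CKO tissue Sgk1 (1.23, adjusted p = 0.109) and Dusp1 (0.51, adjusted p = 0.091) did not pass, and Zbtb16 was not tested. Control library 3 was high here too, a comparison chosen after the values were seen. For Sgk1 the NEC mean was 1.86 (3.94 without CKO control library 3) times the control mean in CKO and 4.36 (7.69 without flox control library 3) in flox tissue, and for Zbtb16 5.45 (20.4 without CKO control library 3) and 8.95 (19.3 without flox control library 3). In CKO tissue it was 7.31 (14.99 without CKO control library 3) times for Fkbp5 and 3.04 (5.47 without CKO control library 3) times for Mt2. Their part in the changes of the clock genes was not tested. Between genotypes limma called 0 outputs and 0 glucocorticoid-induced genes. In NEC 0 of 13 and 2 of 10, and in control 7 of 13 and 2 of 8, had an unadjusted p under 0.05, beside 4.4% of all genes in NEC and 28.9% in control. For the interaction it called 0 genes of the 3 lists, with 3 of 16, 2 of 13 and 2 of 10 at an unadjusted p under 0.05, beside 20.7% of all genes.

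**Figure D4:**
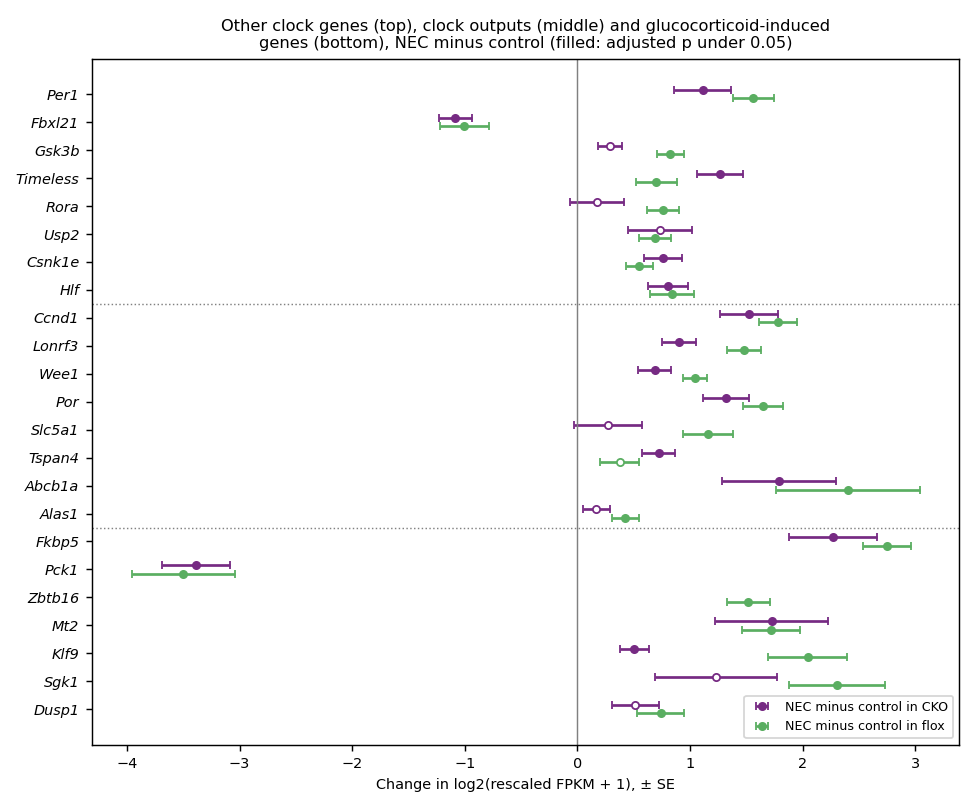
Changes of other clock genes, clock outputs and glucocorticoid-induced genes in NEC minus control, in log2 of rescaled FPKM plus 1 (horizontal axis, ± SE, n = 3 libraries a group), in CKO and flox tissue; filled points passed the adjusted threshold. Fkbp5 lies at 2.27 in CKO and 2.75 in flox tissue, and Pck1 at -3.38 and -3.50.

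The genes whose pattern was most like that of Dbp and Arntl were ranked by Pearson's r of log2 values over the 12 libraries, after taking away the mean of each group, among 11860 genes. This is a description, without a test, of 12 libraries that were scaled together. For Dbp they were Cep250, Fndc10, Sgo1, Ccdc77 and Men1, with r of 0.95 to 0.94. For Arntl they were Rbbp8, Zfx, Parp6, Vamp1 and Rpl36a-ps3, with r of 0.95 to 0.90. With group means kept in, Ccdc77 again came among the first 5 for Dbp (r = 0.96) and Rbbp8 for Arntl (r = 0.88). The 10 members were left out of this ranking, so it does not show how they followed each other. None of the genes named stands on the list of other clock genes.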

How the data were processed

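RNA was isolated with Trizol and libraries were built with a NEBNext Ultra II kit for RNA, per the labels' protocols. Aligner, read counter, genome build and annotation were not given in the sources used here. Deposited values are FPKM, which the authors gave in a NEC table and a control table of 6 libraries and 54532 genes, beside the length of each gene. Gene coordinates were the same as in GENCODE M21 (GRCm38) for 98.3% of the genes matched by ID and for all 10 members.

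Multiplied by gene length, 100% of the FPKM values of a library were whole multiples of 1 step (tolerance 0.05), which gave the reads or fragments per gene. Deposited values stood on average 0.14 log2 above the shared scale in the NEC table and 0.0089 below it in the control table, so the tables had been scaled separately. Reads were therefore divided by median-of-ratios size factors over all 12 libraries and by length. Log2 of this rescaled FPKM plus 1 was tested with limma 3.58.1 (R 4.3.3), with a mean-variance trend, in genes with FPKM of at least 1 in at least 3 libraries fitted, and adjusted by Benjamini-Hochberg at 0.05. A fold on this scale understates the change of low genes. Fits were tested on simulated data. Other work used Python 3.11.15, numpy 2.4.6, pandas 2.3.3 and matplotlib 3.10.9.

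The members, the lists and the tests were chosen with earlier results of these data known. All 10 members are named, with up to 8 genes of each list with the smallest p past the threshold and the 5 genes most like Dbp and Arntl. A gene of the lists is not reported here, and counts leave it out. Alternatives covered pseudocount, filters, scaling, limma-voom, 1 fit of all groups, the replicate number as a block, no trend and leaving out each library.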

Additional observations from a re-analysis of the deposited data

How the results depend on the processing

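Nr1d1, Nr1d2 and Per3 kept their rise in NEC in both genotypes, and Clock its rise in flox tissue, under every alternative in which they were tested. Of 832 values recomputed for single members, 779 kept direction and side of the threshold. In CKO tissue 4 members were called, 2 with a mean FPKM of at least 5 required, and 2 to 4 without 1 library (2 without CKO NEC library 1 or 3, where Per2 missed the threshold and Per3 fell under the filter). In flox tissue 5 were called, 3 with that filter, and 5 to 7 without 1 library (7 without flox control library 3). With total reads 5 were called there too, with Npas2 in place of Per2. Between genotypes in control tissue 0 were called, 3 with all 4 groups in 1 fit, and 0 without any 1 library. For the interaction 0 were called, 1 (Clock) with quantile normalization, 1 (Clock) with limma-voom, and 0 to 1 without 1 library.

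The replicate number as a block gave 1 call in control tissue, Npas2 (0.56, adjusted p = 0.0492), beside 6.84% of all genes, and changed no other call of a member. Deviations of same-numbered libraries correlated at -0.12 to 0.36 between the groups compared. The highest value was that of library 3 of CKO control with library 3 of flox control. These values do not settle whether the numbers pair libraries.

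Values that changed sign were never past the threshold. With total reads these were, in NEC, Arntl -0.0045 and Ciart -6.43e-04 between genotypes, and in CKO tissue Npas2 0.012, Dbp 0.21 and Tef 0.20 for NEC minus control. Deposited FPKM gave Dbp 0.083 and Tef 0.035 there, and quantile normalization Arntl -0.031 and Tef 0.015. Tef was -0.027 between genotypes in control with quantile normalization and -1.08e-03 in flox tissue with equal medians. Without 1 library, signs also changed between genotypes in NEC for Arntl (-0.058 to 0.086), Npas2 (-0.26 to 0.15), Nr1d1 (-0.39 to 0.071), Ciart (-0.083 to 0.10), Dbp (-0.054 to 0.089) and Per2 (-0.13 to 0.067). They did so for Tef between genotypes in control (-0.053 to 0.23), for Tef in flox tissue (-0.077 to 0.17), for Dbp (-0.17 to 0.17) and Tef (-0.23 to 0.00020) in CKO tissue, and for Per2 in the interaction (-0.040 to 0.19). The cause was not tested.

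Total-read scaling moved the median of all genes to 0.24 in CKO and 0.23 in flox tissue, and deposited FPKM to 0.097 and 0.14. Calls over all genes in control tissue were 1 here, 733 with limma-voom, 773 with the stricter filter, 911 with the block and 2090 in 1 fit of all groups; in the interaction they were 113 here and 3 without the trend. No member's name repeats, so summing rows changed nothing. Ciart, at or under the filter in CKO tissue, passed the threshold there with total reads only. In the other 3 alternatives that tested it, its change was also positive but did not pass. Between genotypes in control it did not pass in either of 2.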
